A study of Mus musculus with 12 samples.

Results

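Genes of cholesterol synthesis and sterol regulation were followed in the retina of mice with oxygen-induced retinopathy (OIR). The set was a list of 28 genes, each matched by its symbol to 1 of the 36131 genes in the count table, and all 28 passed the filter on low counts. It held 18 enzymes of the synthesis pathway (7 of the mevalonate arm, 3 of the squalene and lanosterol steps and 8 of the steps after lanosterol), 5 genes of SREBP regulation and 5 genes of sterol transport and the LXR response. RNA was measured by RNA-seq in 12 C57BL/6J wildtype mice at postnatal day (P) 18, in 3 groups of 4 animals. RA-PBS animals (1 to 4) stayed in room air and received the placebo PBS. O2-PBS animals (5 to 8) and O2-IC100 animals (9 to 12) were kept in 75% O2 from P7, with a return to room air at P12, and received PBS or IC100 at 10 µg/g, which is a therapeutic antibody to ASC, an adaptor protein of inflammasomes. All 3 groups were injected intraperitoneally on P12, P14 and P16. The oxygen phase damages young retinal capillaries and stops vessel growth. The return to room air is followed by vessel regrowth with neovascular tufts, so at P18 the O2 groups were in the regrowth phase of the model. Each library was made from bulk retina, so a lower level may come from fewer cells of a type or from less RNA per cell, and the 2 cannot be told apart.

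Cells make cholesterol from acetyl-CoA through mevalonate, isoprenoids, squalene and lanosterol. When sterol in the endoplasmic reticulum is low, SCAP carries the SREBP factors to the Golgi, where they are released to switch on most enzymes of the pathway, and INSIG proteins hold the complex back when sterol is plentiful. When sterols are in excess, oxysterols act on LXR receptors, which switch on exporters such as ABCA1 and ABCG1. The retina makes much of its own cholesterol, in Müller glia and neurons among others, and also takes it up from the blood.

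Promoter sequence was looked at first, since SREBP and its partner NF-Y bind close to the start of many of these genes. RefSeq windows of the GRCm38 build, from 250 bases before to 50 after a start, were at hand for 23 of the 28 genes, in 31 windows. There were no such windows for Fdps, Fdft1, Sqle, Stard4 and Abcg1. The sterol regulatory element TCACNCCAC, on either strand, was in 1 of the 31 windows (3.23%), that of Hmgcs1, and in 1.24% of all 32851 windows. The NF-Y box CCAAT was in 20 of 31 (64.5%) against 37.4% of all windows, the Sp1 box GGGCGG in 25 (80.6%) against 35.7%, the E-box CACGTG in 7 (22.6%) against 7.15%, and the LXR element DR4 in 0 against 0.0152%. All motifs were searched on both strands and counted separately, also where their matches overlapped. These are matches of letters and not measured sites. The 250 bases before the start are shown 5′ to 3′ for Hmgcs1, the gene with the sterol element, and for Idi1 and Insig1, chosen after their values were seen because they are the synthesis enzyme and the regulator with the largest decreases described further on. The runs of 5 capitals (ATTGG is CCAAT on the other strand) are NF-Y boxes, and the run of 9 capitals in Hmgcs1 is the sterol element, which begins 137 bases before the start. All 3 lie on the plus strand: Hmgcs1 at chr13:119690101-119690350, Idi1 at chr13:8885356-8885605 and Insig1 at chr5:28071162-28071411.
Hmgcs1: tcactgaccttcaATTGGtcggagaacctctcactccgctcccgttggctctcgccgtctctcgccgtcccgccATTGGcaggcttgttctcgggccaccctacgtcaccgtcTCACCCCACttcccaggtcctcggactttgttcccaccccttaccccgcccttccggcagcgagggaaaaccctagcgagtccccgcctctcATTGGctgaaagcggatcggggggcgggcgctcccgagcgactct
Idi1: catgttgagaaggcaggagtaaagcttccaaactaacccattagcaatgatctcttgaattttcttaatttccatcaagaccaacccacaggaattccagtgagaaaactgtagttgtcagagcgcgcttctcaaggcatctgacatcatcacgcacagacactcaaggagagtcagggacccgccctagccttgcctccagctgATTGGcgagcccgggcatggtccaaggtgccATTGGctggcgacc
Insig1: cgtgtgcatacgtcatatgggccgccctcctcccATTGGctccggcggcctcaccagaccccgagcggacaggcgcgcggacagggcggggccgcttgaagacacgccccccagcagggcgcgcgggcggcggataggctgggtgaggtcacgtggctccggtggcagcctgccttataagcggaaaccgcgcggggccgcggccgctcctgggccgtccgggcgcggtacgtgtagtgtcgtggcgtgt
Hmgcs1 has 3 NF-Y boxes in these bases, Idi1 has 2 and Insig1 has 1. Idi1 and Insig1 do not hold these letters of the sterol element in their windows. Among the 6 genes with a window that were lower in O2-PBS than in RA-PBS, 5 held the NF-Y box, and among the other 17 genes 14 did, so presence of the box did not separate them.

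Before the comparisons, some libraries need to be set apart. Total counts were 14907143 to 24438082 per animal. O2-IC100 animal 10 had 37% of its counts in 12 lens genes and 0.317% in rod genes, against 3.68% to 4.56% of counts in rod genes in the other 11, so it was left out of the fit unless stated otherwise. RA-PBS animals 2, 3 and 4 had 0.794%, 3.09% and 0.921% of counts in lens genes, against 0.00122% in RA-PBS animal 1 and at most 0.0085% in the O2 groups without animal 10. RA-PBS animal 4 alone had a high level of oligodendrocyte and optic nerve genes, 5710 summed CPM against 33.1 to 44.8 in the other 10 animals of the fit. Y-linked genes summed to 246 to 362 CPM in RA-PBS animals 1 to 3, O2-PBS animal 8 and O2-IC100 animals 9, 11 and 12, and to 4.48 to 10.9 CPM in RA-PBS animal 4, O2-PBS animals 5 to 7 and O2-IC100 animal 10, so the sexes were unequally spread over the groups. Levels are CPM, counts scaled to a common library size, normalized by TMM unless stated, and a gene is called changed at an adjusted p under 0.1 in edgeR's quasi-likelihood test on 11 animals.

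Compared with RA-PBS, the O2-PBS retinas had less RNA of 8 of the 28 sterol genes and more of 2. The 8 lower genes were 4 of the 7 mevalonate arm genes (Acat2, Hmgcs1, Idi1, Fdps), Fdft1 of the squalene steps, Cyp51 and Nsdhl of the steps after lanosterol, and the SREBP brake Insig1. The 2 higher genes were Pmvk, also of the mevalonate arm, and the sterol exporter Abca1. Called genes thus made up 35.7% of the list, where 12.4% of the 16688 tested genes were called, and 28.6% were lower against 6.42% of all and 7.14% higher against 6%. The list was chosen with earlier results of these data known, so these shares only describe it, and no test over the list was run. At an unadjusted p under 0.05 there were 17 members (60.7%), against 21.9% of all genes. The 4 O2-PBS animals lay below all RA-PBS animals in 7 members (25%, against 6.48% of all genes) and above them in 3 (10.7%, against 7.86%). With the study's thresholds (fold change of at least 1.5 and an unadjusted p under 0.05 besides), 3 members were left, Idi1, Insig1 and Abca1, where 6.27% of all genes passed. The log2 fold change lay below 0 for 22 members (78.6%), against 51.2% of all genes, and its median was -0.17 against -0.01 for all genes.

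**Figure D1:**
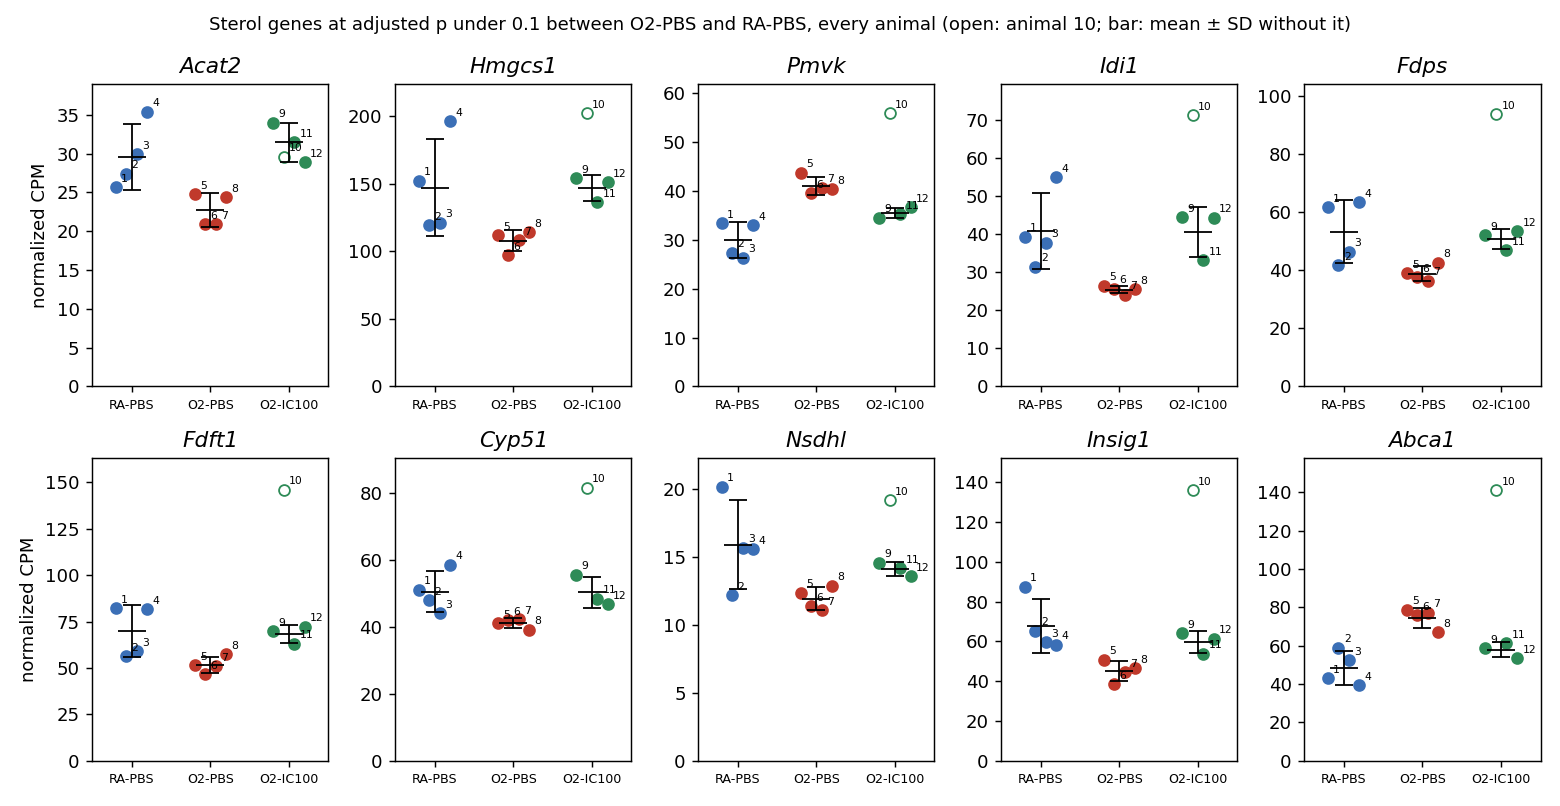
Normalized CPM (linear axis from 0) of the 10 sterol genes called between O2-PBS and RA-PBS, 1 point per animal with its number, with mean ± SD over 4 RA-PBS, 4 O2-PBS and 3 O2-IC100 animals; the open point is animal 10, which is in neither the mean nor the SD. The 4 O2-PBS points of Idi1 (24.1 to 26.5 CPM) lie under all other animals, and those of Abca1 (67 to 78.7 CPM) lie above all animals but animal 10.

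Within the mevalonate arm, Idi1 had the largest decrease. IDI1 turns isopentenyl diphosphate into its reactive isomer. Its level was 39.3, 31.5, 37.8 and 55 CPM in RA-PBS animals 1 to 4, 26.5, 25.7, 24.1 and 25.5 in O2-PBS animals 5 to 8, and 44.5, 33.1 and 44.3 in O2-IC100 animals 9, 11 and 12. The O2-PBS animals were the lowest and overlapped with neither other group. The log2 fold change of O2-PBS over RA-PBS was -0.68 (SE 0.151, adjusted p = 0.0138, n = 4 and 4), a 1.61-fold lower level.

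Hmgcs1 encodes the cytosolic HMG-CoA synthase, which feeds the arm. It stood at 152, 119, 121 and 196 CPM in RA-PBS, at 112, 97.1, 108 and 114 in O2-PBS and at 154, 136 and 151 in O2-IC100 animals 9, 11 and 12. All O2-PBS values lay under those of both other groups, with a log2 fold change to RA-PBS of -0.45 (SE 0.137, adjusted p = 0.0619). Acat2, the cytosolic thiolase that makes acetoacetyl-CoA, was at 25.7, 27.4, 29.9 and 35.4 CPM in RA-PBS, 24.8, 20.9, 20.9 and 24.4 in O2-PBS and 34, 31.5 and 28.9 in O2-IC100. Its groups also did not overlap, although RA-PBS animal 1 and O2-PBS animal 5 were less than 1 CPM apart, and the log2 fold change was -0.38 (SE 0.113, adjusted p = 0.0554).

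Fdps encodes farnesyl diphosphate synthase, at the branch point to other isoprenoids. Its level was 61.8, 41.8, 46.5 and 63.6 CPM in RA-PBS, 39, 37.7, 36.4 and 42.6 in O2-PBS and 52.1, 46.9 and 53.5 in O2-IC100, and the log2 fold change to RA-PBS was -0.46 (SE 0.126, adjusted p = 0.0412). RA-PBS animal 2 fell inside the O2-PBS range here. In the annotation, Fdps shares 1124 exonic bases with Gm43738 on the same strand, so its reads could have been split between them.

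Pmvk, the phosphomevalonate kinase, went the other way. It was at 33.3, 27.3, 26.3 and 32.9 CPM in RA-PBS, at 43.7, 39.5, 40.6 and 40.3 in O2-PBS and at 34.5, 35.2 and 36.6 in O2-IC100. O2-PBS was the highest group with no overlap, at a log2 fold change of 0.45 over RA-PBS (SE 0.092, adjusted p = 0.0092). The remaining kinase Mvk and the decarboxylase Mvd were not called, with log2 fold changes of -0.09 (95% interval -0.32 to 0.14) and -0.21 (-0.42 to 0.01).

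Past farnesyl diphosphate, Fdft1 encodes squalene synthase, the first step committed to sterols. It stood at 82.3, 56.3, 58.9 and 81.5 CPM in RA-PBS, 51.6, 46.7, 50.9 and 57.4 in O2-PBS and 69.9, 63.1 and 72.3 in O2-IC100. RA-PBS animal 2 lay just under O2-PBS animal 8, and the log2 fold change was -0.43 (SE 0.126, adjusted p = 0.0498). Fdft1 shares 774 exonic bases with Ctsb on the opposite strand, and whether counting used strand is not given in the sources used here. Opposite-strand overlaps of other called genes were 557 bases for Hmgcs1 (Gm48342), 323 for Idi1 (Gm48574) and 166 for Cyp51 (Akap9). The epoxidase Sqle (-0.11, interval -0.28 to 0.07) and lanosterol synthase Lss (-0.03, interval -0.26 to 0.2) were not called.

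Cyp51, the lanosterol demethylase, was at 51.2, 48, 44.2 and 58.6 CPM in RA-PBS, 41.2, 42, 42.3 and 39.2 in O2-PBS and 55.6, 48.5 and 46.9 in O2-IC100. The O2-PBS values lay below both other groups, with a log2 fold change to RA-PBS of -0.29 (SE 0.0939, adjusted p = 0.0722). Nsdhl, which acts in the removal of the methyl groups at C4, was at 20.2, 12.2, 15.7 and 15.6 CPM in RA-PBS, 12.4, 11.4, 11.1 and 12.9 in O2-PBS and 14.6, 14.2 and 13.6 in O2-IC100. RA-PBS animal 2 was again within the O2-PBS range, and the log2 fold change was -0.41 (SE 0.139, adjusted p = 0.0878). The other genes of this stretch (Tm7sf2, Msmo1, Hsd17b7, Ebp, Sc5d and Dhcr7) were not called. Of these, the C4 oxidase Msmo1 (-0.35, interval -0.63 to -0.08, adjusted p = 0.115) and the last reductase Dhcr7 (-0.17, interval -0.32 to -0.01, adjusted p = 0.201) had O2-PBS values under all RA-PBS values.

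Among the regulators, Insig1 was lower in O2-PBS. INSIG1 retains SCAP and is itself a target of SREBP. It was at 87.6, 65.3, 59.6 and 58.3 CPM in RA-PBS, 50.9, 38.4, 44.5 and 46.6 in O2-PBS and 64.2, 53.8 and 61.3 in O2-IC100. O2-PBS overlapped with neither other group, and the log2 fold change was -0.59 (SE 0.13, adjusted p = 0.0142), a 1.5-fold lower level. The SREBP genes themselves were not called. Srebf2, the factor tied most closely to cholesterol genes, had a log2 fold change of -0.27 (interval -0.53 to 0, adjusted p = 0.22), Srebf1, tied more to fatty acid genes, 0.27 (interval 0.05 to 0.5, adjusted p = 0.136), Insig2 -0.29 (interval -0.52 to -0.06, adjusted p = 0.119) and the escort Scap -0.04 (interval -0.21 to 0.13).

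Abca1, which moves cholesterol out of cells onto apolipoproteins, had the smallest p of the list. Its level was 43.2, 58.9, 52.3 and 39.5 CPM in RA-PBS, 78.7, 75.8, 77.1 and 67 in O2-PBS and 58.8, 61.3 and 53.5 in O2-IC100. O2-PBS was above every RA-PBS animal, with a log2 fold change of 0.62 (SE 0.115, adjusted p = 0.00525), a 1.54-fold higher level. Other genes under LXR had smaller differences that were not called. The exporter Abcg1 had a log2 fold change of 0.24 (interval 0.04 to 0.43, adjusted p = 0.139) and Mylip, a ubiquitin ligase that removes lipoprotein receptors, 0.17 (interval 0.02 to 0.33, adjusted p = 0.169). The receptor Nr1h2 (LXRβ) stood at 0.11 (interval -0.04 to 0.27) and the sterol carrier Stard4 at -0.11 (interval -0.38 to 0.15).

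**Figure D2:**
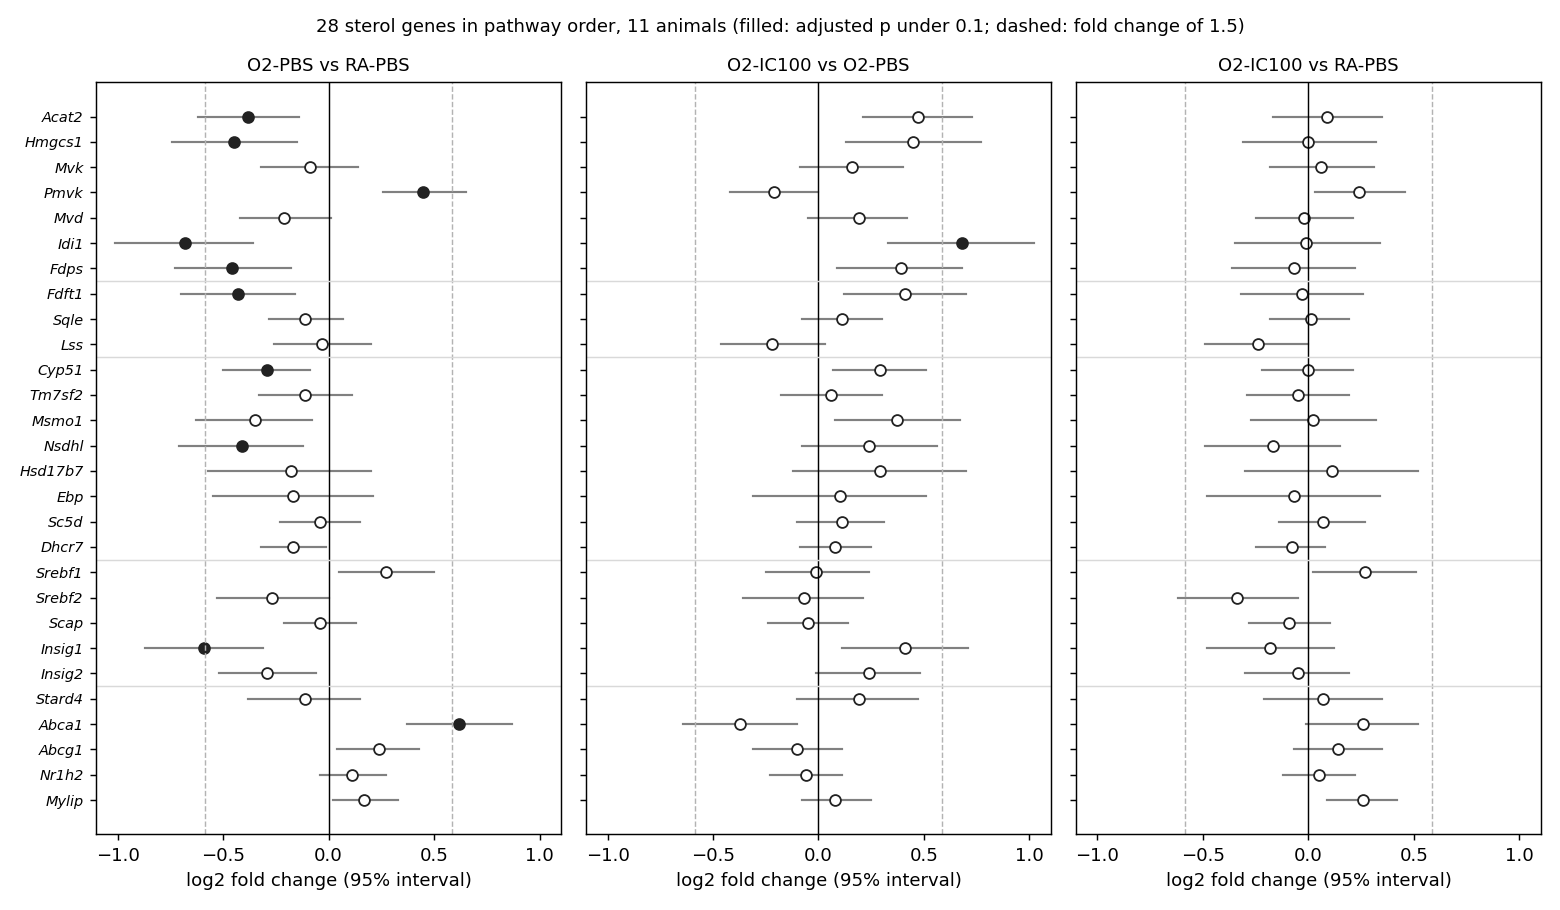
Log2 fold change of each of the 28 genes in pathway order from Acat2 to Mylip, in 3 comparisons of the fit on 11 animals; lines are 95% intervals, filled points have an adjusted p under 0.1, dashed lines mark a 1.5-fold change and grey lines part the 5 roles. In O2-PBS against RA-PBS 10 points are filled, 8 of them left of 0, in O2-IC100 against O2-PBS 1 is filled, Idi1 at 0.68, and in O2-IC100 against RA-PBS none is.

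Other genes of sterol and fatty acid metabolism that are not on the list gave a smaller share of calls. Of 42 listed, 41 were tested, and 4 (9.76%) were called between O2-PBS and RA-PBS, against 12.4% of all genes. The fatty acid elongase Elovl6 (log2 fold change -0.36, adjusted p = 0.0047), the sterol 27-hydroxylase Cyp27a1 (-0.84, adjusted p = 0.0639) and the desaturase Fads1 (-0.25, adjusted p = 0.0972) were lower, and Scarb1, a receptor for high-density lipoprotein, was higher (0.30, adjusted p = 0.0662). The median log2 fold change of the 41 genes was -0.02, close to the -0.01 of all genes. These genes too were chosen with earlier results of these data known.

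These counts moved with the libraries that stood apart. With animal 10 in the fit, none of the 28 genes was called by edgeR (smallest adjusted p = 0.376, 8 at an unadjusted p under 0.05), and 0.813% of all genes were, while DESeq2 on the 12 animals called 1, Acat2 (3.57% of the list), and 3.1% of all genes. The log2 fold changes of the 10 called members were within 0.01 of those without it, since the animal is in neither group and entered through the shared estimate of the spread, the normalization and the filter. Without RA-PBS animal 4, the one with the optic nerve signal, 8 members were called: Hmgcs1, Idi1, Fdps, Dhcr7, Srebf2 and Insig1 lower and Pmvk and Abca1 higher, with 14.1% of all genes called. Leaving out each of the 11 animals in turn gave 4 to 14 called members, fewest without O2-PBS animal 6 or 7 and most without RA-PBS animal 2. The share of all genes called moved along, at 8.07% and 7.74% without O2-PBS animals 6 and 7 and 15.4% without RA-PBS animal 2. Idi1, Insig1, Pmvk and Abca1 were called in each of these 11 fits. Without RA-PBS animal 1, the RA-PBS animal with no lens or optic nerve signal, 5 members (these 4 and Acat2) and 10.4% of all genes were called. In that fit the log2 fold change of Insig1 shrank to -0.44. Without RA-PBS animal 4 that of Idi1 shrank to -0.51 and that of Abca1 to 0.54. Each of these values falls short of a 1.5-fold change.

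With the Y-linked level as a covariate 11 members (39.3%) and 8.96% of all genes were called. With it and without RA-PBS animal 4, no member was called (6 at an unadjusted p under 0.05) and 1.58% of all genes were. In that fit O2-PBS animal 8 is the only animal that separates sex from group between RA-PBS and O2-PBS. Marker RNA of some retinal cell types also differed between RA-PBS and O2-PBS. The 7 Müller glia markers summed to 4990, 3660, 3660 and 3400 CPM in RA-PBS and 2970 to 3270 in O2-PBS, but did not move together: 4 were called lower and 2 higher, Vim and Sox9 (Vim 237, 151, 322 and 271 CPM against 394, 340, 413 and 355). The 5 ganglion cell markers summed to 775 to 1170 CPM against 637 to 698, with 2 called lower, and the 5 pigment epithelium markers to 240, 290 and 250 CPM in RA-PBS animals 2, 3 and 4 and less in animal 1, against 42.3 to 127, with 3 called lower. The 7 endothelial markers summed to 189 to 278 CPM against 405 to 464, with 6 called higher, the 7 microglia markers to 27.4 to 59.1 against 58.1 to 74.1, with 3 called higher, and the 4 astrocyte markers to 38.3 to 370 against 130 to 241, with 1 called higher. Their part in the sterol gene levels was not tested.

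**Figure D3:**
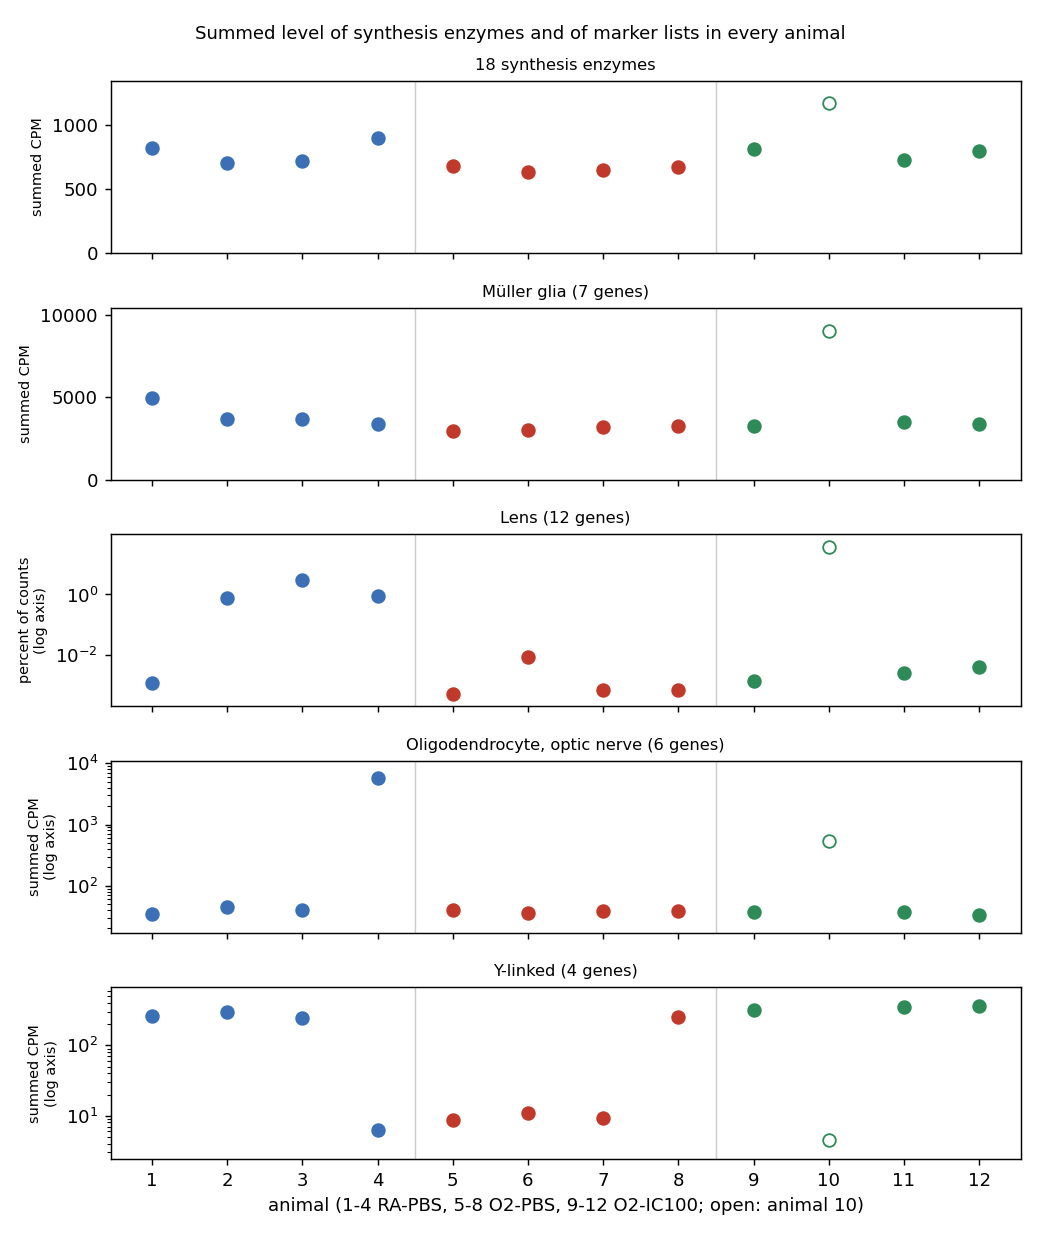
Summed normalized CPM of the 18 synthesis enzymes and of Müller glia, oligodendrocyte and Y-linked markers, and percent of counts in lens genes, in each of 12 animals; axes of the first 2 panels start at 0, the other 3 are log axes, and the open point is animal 10. The 4 O2-PBS animals have the lowest enzyme sums (632 to 681 CPM). RA-PBS animal 4 and, less so, animal 10 are high in the optic nerve panel. In the lens panel animal 10 is the highest, followed by RA-PBS animals 3, 4 and 2 (3.09%, 0.921% and 0.794%).

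Summed over the 18 synthesis enzymes, the level was 816, 701, 719 and 898 CPM in RA-PBS, 681, 632, 648 and 672 in O2-PBS and 808, 728 and 792 in O2-IC100 animals 9, 11 and 12. The 4 O2-PBS sums were the lowest of the 11, and the RA-PBS sums spread the most. The median enzyme, relative to its RA-PBS mean on the log2 scale, was at 0.08, -0.15, -0.11 and 0.2 in RA-PBS, at -0.2, -0.22, -0.25 and -0.19 in O2-PBS and at 0.06, -0.07 and 0.04 in O2-IC100. In the mevalonate arm the O2-PBS medians were -0.24, -0.48, -0.41 and -0.27, below the RA-PBS medians of 0.08, -0.22, -0.12 and 0.27. In the 8 steps after lanosterol they were -0.2, -0.17, -0.25 and -0.11, also below those of RA-PBS (0.02, -0.09, -0.05 and 0.1). In the 3 squalene and lanosterol genes they were 0.02, -0.14, -0.13 and -0.17, and overlapped with RA-PBS (0.13, -0.04, -0.13 and 0.03). In both arms without overlap the lowest RA-PBS animal, number 2, was only 0.02 from the nearest O2-PBS animal. Levels of different genes can only be set side by side per length. Divided by the longest annotated transcript, Hmgcs1 was the most abundant member in RA-PBS at 42.4 CPM per kb, followed by Scap at 37, and Hsd17b7 the least at 2.98. Divided by the median transcript length, Scap led at 351 and Hmgcs1 came at 58.8 CPM per kb, so the order rested on the length chosen.

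The effect of IC100 was asked by comparing O2-IC100 with O2-PBS. Of the 28 genes, only Idi1 was called, 1.6-fold higher with IC100 (log2 fold change 0.68, SE 0.161, adjusted p = 0.0929, n = 3 and 4), where 1.31% of all genes were called and 0.461% were higher. The values of Idi1 in each animal stand above, and the lowest O2-IC100 animal (33.1 CPM) was over the highest O2-PBS animal (26.5). After it came Acat2 (0.47, SE 0.121, adjusted p = 0.11) and Hmgcs1 (0.45, SE 0.147, adjusted p = 0.166), neither called. At an unadjusted p under 0.05 there were 9 members, against 19.2% of all genes, and the median log2 fold change was 0.13 against 0. In 11 members the 3 O2-IC100 animals lay above all O2-PBS animals (39.3%, against 19.4% of all genes), namely Acat2, Hmgcs1, Mvd, Idi1, Fdps, Fdft1, Cyp51, Msmo1, Nsdhl, Insig1 and Insig2. In 4 they lay below (14.3%, against 16%), namely Pmvk, Lss, Abca1 and Nr1h2. These 11 hold the 8 genes that were lower in O2-PBS than in RA-PBS, and the 4 hold both genes that were higher. The 2 comparisons share the O2-PBS animals, whose low or high values enter both. Of all 1072 genes called lower in O2-PBS, 51.8% had the 3 O2-IC100 animals above all O2-PBS animals, and of the 1002 called higher, 54.4% had them below. The fold changes for Pmvk (-0.21, interval -0.42 to 0) and Abca1 (-0.37, interval -0.64 to -0.1, adjusted p = 0.177) were not called.

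The call on Idi1 was not firm. It was lost in 7 of the 11 fits that left out 1 animal (adjusted p 0.014 to 0.349 over the 11), those without any one of O2-PBS animals 5 to 8 or O2-IC100 animals 9, 11 or 12. In these 7 fits 0% to 0.711% of all genes were called, against 1.31% with the 11 animals. Of 14 other alternatives 11 kept the call on Idi1 and 3 lost it. DESeq2 on the 11 animals kept it (adjusted p = 0.00804), with 7.26% of all genes called. Without RA-PBS animal 4, which is in neither group but adds to the shared spread, 9 members were called (Acat2, Hmgcs1, Idi1, Fdps, Fdft1, Cyp51, Msmo1 and Insig1 higher, Abca1 lower) and so were 12.9% of all genes. A fit of these 2 groups alone called 12 members and 34% of all genes. Sex differed between these groups: all 3 O2-IC100 animals of the fit had the high Y-linked level and 1 of 4 O2-PBS animals did. The ganglion cell sum was 803 to 831 CPM in O2-IC100 against 637 to 698 in O2-PBS, and the endothelial sum 307 to 343 against 405 to 464. Their part was not tested. Of the 41 other sterol genes none was called by edgeR, 6 (14.6%) had an unadjusted p under 0.05 against 19.2% of all genes, and DESeq2 called 3 (7.32%) against 7.26% of all genes.

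Animal 10 was left out of these values. At 71.3 CPM for Idi1, 202 for Hmgcs1, 93.8 for Fdps, 146 for Fdft1 and 136 for Insig1 it was the highest of all 12 animals, and its Abca1 level of 141 CPM was 2.32 times the mean of the other 11. Its Abcg1 level was 19 CPM, 0.162 times that mean. With it in the group the O2-IC100 mean of Idi1 became 48.3 ± 16.2 CPM (SD, n = 4) against 40.7 ± 6.55 (n = 3), and no member was called by edgeR (smallest adjusted p = 0.287, 10 at an unadjusted p under 0.05), while DESeq2 called 2, Acat2 and Idi1, and 0.982% of all genes. The log2 fold change of Abca1 over O2-PBS then turned from -0.37 to 0.06. Its normalized levels depend on scaling, since the lens transcripts take up so much of the library: in CPM of the plain library total, the 18 enzymes summed to 343 CPM in animal 10 and to 634 to 864 in the others.

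**Figure D4:**
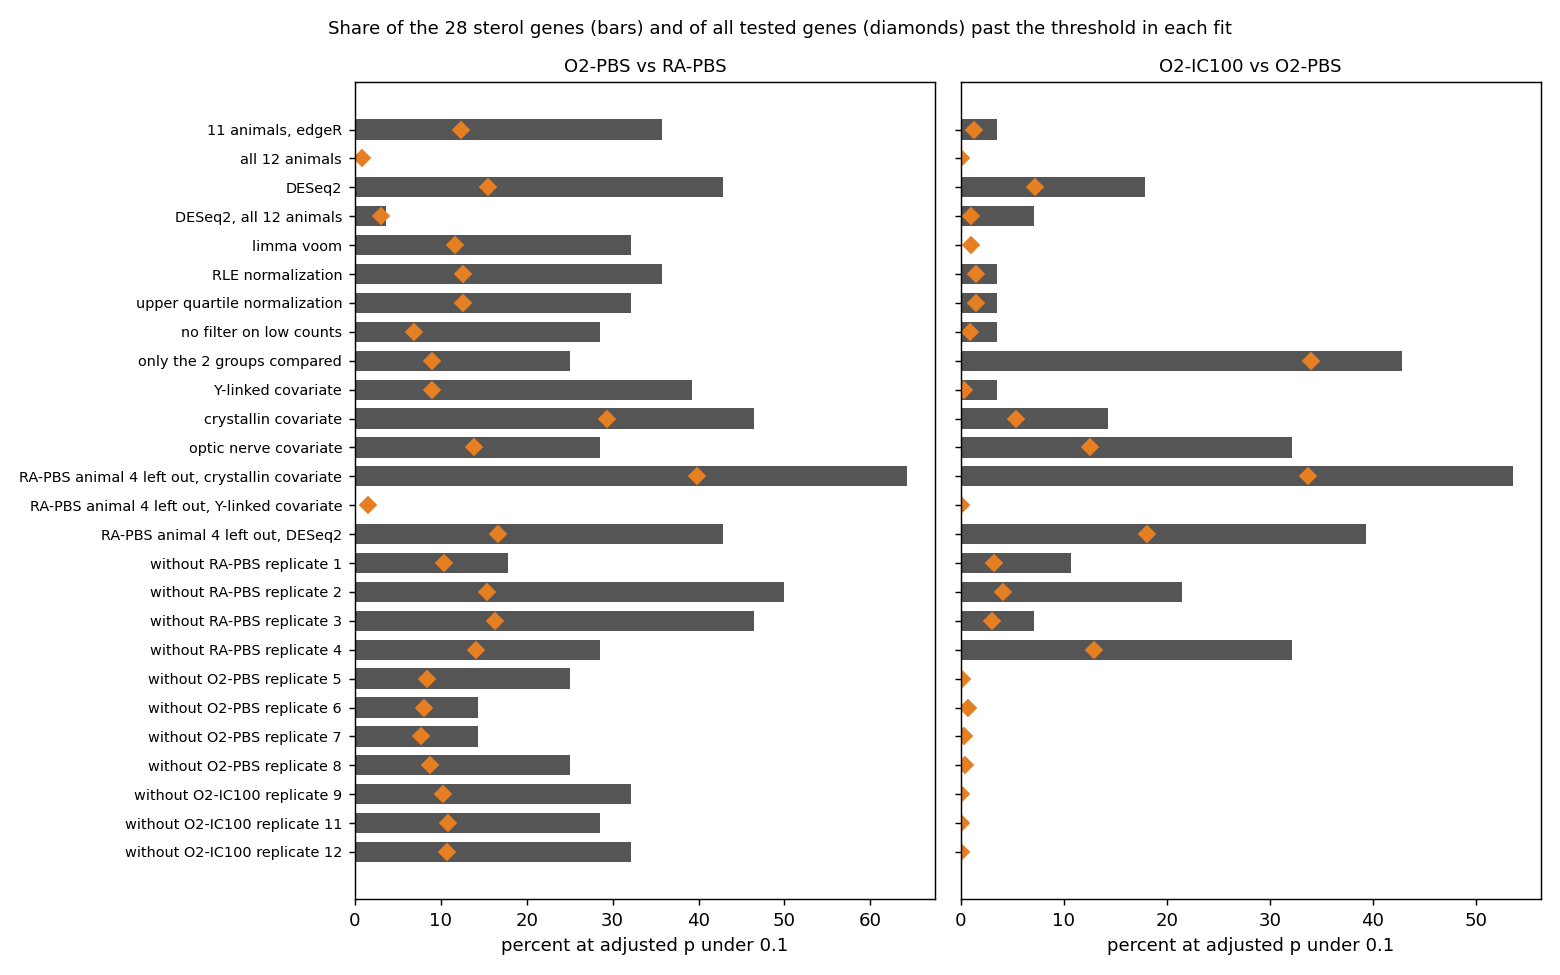
Percent of the 28 sterol genes (bars) and of all tested genes (diamonds) at an adjusted p under 0.1 in each fit, for O2-PBS against RA-PBS and O2-IC100 against O2-PBS. In the first comparison the bar reaches beyond the diamond except with all 12 animals in edgeR and in the fit without RA-PBS animal 4 and with the Y-linked covariate, both with 0 members called.

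O2-IC100 and RA-PBS were compared last. None of the 28 genes was called by edgeR, while 2.53% of all genes were, and 4 members had an unadjusted p under 0.05, against 15.6% of all genes. DESeq2 called 1, Mylip (3.57% of the list), and 7.09% of all genes. The smallest p belonged to Mylip (log2 fold change 0.26, SE 0.0772, adjusted p = 0.133), followed by Srebf2 (-0.34, SE 0.133, adjusted p = 0.237) and Pmvk (0.24, SE 0.099, adjusted p = 0.256). The median over the list was 0, with values from -0.34 to 0.27. Idi1 was at 40.7 ± 6.55 CPM in O2-IC100 and 40.9 ± 9.99 in RA-PBS (SD, n = 3 and 4), a log2 fold change of -0.01 with an interval of -0.35 to 0.34. For the 10 genes called between O2-PBS and RA-PBS, the log2 fold changes lay between -0.18 and 0.26, and the interval included 0 for 9 of them, the exception being Pmvk. The intervals of these 10 genes reached as far as -0.49 and 0.52, so differences up to that size were not excluded for every gene. Without RA-PBS animal 4, 4 members were called (Pmvk, Lss, Srebf2 and Mylip), where 19.1% of all genes were. Of the 41 other sterol genes 1 (2.44%) was called, against the 2.53% of all genes. It was the fatty acid elongase Elovl5, higher in O2-IC100 (0.37, adjusted p = 0.0864). With animal 10 in the edgeR fit Elovl5 was not called (0.25, adjusted p = 0.406).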

How the data were processed

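Whole retinal RNA of 12 animals was sequenced by the authors after poly(A) selection (paired-end, 150 bp). Per the paper's methods they pseudoaligned reads with Kallisto to GRCm39_104 and summed transcripts with tximport, so the deposited values are expected counts per gene, not scaled to library size (42.2% are not whole numbers). Genes took symbols from a reference table (35374 of 36131). Here the expected counts were rounded, filtered with filterByExpr (16688 genes), normalized by TMM and fitted with edgeR 4.0.16 in R 4.3.3 (robust quasi-likelihood F test, two-sided, 3 groups in 1 fit, no covariate, Benjamini-Hochberg over all tested genes). O2-IC100 animal 10 was left out of the fit, and its values and the fit of 12 animals (16489 genes) are given beside. Intervals are 95%. SE and p-values come from the fit, which sets differences between groups against a spread between animals estimated over the 3 groups together. Alternatives used DESeq2 1.42.0, limma 3.58.1 voom, other normalizations, no filter, marker covariates and each animal left out. Those without RA-PBS animal 4 combined with another change, and the optic nerve covariate, were added after the data were seen. The smallest share visible, 3 counts, was 1.23e-05% to 2.01e-05% of a library, counting error only. Exon overlaps and lengths came from GENCODE M21 (GRCm38), by gene. Scripts were tested on simulated data. All 28 members are named, with full statistics where called and otherwise for the smallest p. Members, lists and markers were chosen with earlier results of these data known.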

Additional observations from a re-analysis of the deposited data

Results flagged for a closer look

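In 56 groups of 4 animals (28 genes in RA-PBS and O2-PBS), the highest or lowest animal was tested for a gap to the nearest other animal that is large against the range of the group (Dixon's ratio, 95% critical value). The gap was larger in 2 groups, where chance gives about 2.8. Msmo1 was at 53.4 CPM in RA-PBS animal 4, the animal with the optic nerve signal, and at 36.1 to 38.2 in the other 3 (ratio of gap to range 0.879). Stard4 was at 31.4 CPM in RA-PBS animal 1 and at 21.9 to 23.5 in the others (ratio 0.832). Neither gene was called between O2-PBS and RA-PBS. O2-IC100 animal 10, which is outside the fit, had a sum of 1170 normalized CPM over the 18 synthesis enzymes, above the 632 to 898 of the other 11 animals, but 343 CPM with no scaling, below all of them.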

How the results depend on the processing

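No paired analysis was possible because the animal numbers are not shared between groups. Counts below are of genes called at an adjusted p under 0.1, in edgeR unless stated, and the cause of a change was not tested. Over the 23 gene-level fold changes given for single members, leaving out 1 animal changed no direction, 197 of these fits kept the side of the threshold, 38 lost the call and 18 gained it. Over the other alternatives 221 kept it, 47 lost it, 52 gained it and 2 turned direction: Abca1 in O2-IC100 against O2-PBS went to 0.06 with all 12 animals and to 0.09 with DESeq2 on all 12.

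For O2-PBS against RA-PBS, leaving out 1 animal gave 1287 to 2702 genes called, 4 to 14 members, 1 to 3 members past the 1.5-fold change (1 without RA-PBS animal 1) and 1 to 5 other sterol genes. With all 12 animals, 134 genes, 0 members and 0 other sterol genes were called, and with DESeq2 on all 12 animals 511, 1 (0 past 1.5-fold) and 1. A fit of the 2 groups alone called 2 other sterol genes. The crystallin covariate called 4909 genes (29.4%) and 13 members, 6 of them past 1.5-fold. The optic nerve covariate called 2316 genes (13.9%) and 8 members, 1 of them past 1.5-fold. Without RA-PBS animal 4, the crystallin covariate called 6616 genes, 18 members (5 past 1.5-fold) and 12 other sterol genes, and the Y-linked covariate 263, 0 (0) and 0. DESeq2 without that animal called 2768 genes (16.7%) and 12 members (1 past 1.5-fold).

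For O2-IC100 against O2-PBS, leaving out 1 animal gave 0 to 2140 genes, 0 to 9 members, 0 to 1 members past 1.5-fold and 0 to 5 other sterol genes, with the highest counts without RA-PBS animal 4 and no genes called without O2-IC100 animal 9, 11 or 12. With all 12 animals 0 genes and 0 members were called, although 2784 genes had an unadjusted p under 0.05. DESeq2 called 1211 genes, 5 members and 3 other sterol genes, and 2 members on all 12 animals. Limma voom called 0 members. The 2 groups alone gave 5557 genes, 12 members and 15 other sterol genes. The Y-linked covariate gave 49 genes, the crystallin covariate 892 genes, 4 members and 2 other sterol genes, and the optic nerve covariate 2108, 9 and 5. Without RA-PBS animal 4, the crystallin covariate gave 5589, 15 and 14, the Y-linked covariate 0 genes and 0 members, and DESeq2 3009, 11 and 7.

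For O2-IC100 against RA-PBS, leaving out 1 animal gave 21 to 3175 genes, 0 to 4 members and 0 to 8 other sterol genes, again highest without RA-PBS animal 4. With all 12 animals 0 genes and 0 other sterol genes were called, also 0 other sterol genes with DESeq2 on 12 animals and with no filter on low counts. DESeq2 gave 1183 genes, 1 member and 3 other sterol genes. The 2 groups alone gave 18 genes and 0 other sterol genes, the Y-linked covariate 776 genes, the crystallin covariate 2397 genes, 2 members and 5 other sterol genes, and the optic nerve covariate 3114, 4 and 8. Without RA-PBS animal 4, the crystallin covariate gave 4602, 6 and 16, the Y-linked covariate 2326, 3 and 7, and DESeq2 3579, 4 and 15. The level of Scap per kb in RA-PBS was 37 with the longest transcript as length and 351 with the median. The 28 members had 76 to 3482 expected counts per animal, animal 10 included, so none was near the smallest visible count of 3.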
